A study of Mus musculus with 8 samples.

Results

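The protocadherin genes are the 71 rows, of 24849 in the expression table, whose gene symbol begins with Pcdh. Of these, 59 lie in the alpha, beta and gamma clusters on chromosome 18 and 12 are single genes outside the clusters, of which Pcdh1 and Pcdh12 also lie on chromosome 18. They were followed in MPI-II mouse embryonic stem cells (mESCs), a line of the 129S2/SvPas strain, that were either wild type (WT) or carried a Pcgf5-/- knockout, made with transcription activator-like nucleases against the second exon and drug selection of single colonies. PolyA+ RNA was sequenced at day 0, when cells grew on feeder-coated plates in serum with leukemia inhibitory factor and the 2i inhibitors, and at day 6 in N2B27 medium, which drives neural differentiation. Each of the 4 conditions (WT day 0, Pcgf5-/- day 0, WT day 6 and Pcgf5-/- day 6) had 2 samples, written below as replicate 1 and replicate 2. How many knockout clones the samples represent is not given in the labels. The question was how expression in WT and Pcgf5-/- cells differed before and during neural differentiation.

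Protocadherins are the largest group within the cadherin family of cell adhesion proteins and are expressed most strongly in the nervous system. In the clusters, each variable exon has a promoter of its own, individual neurons use different promoters through CTCF, cohesin and DNA methylation, and the resulting mix of proteins on a neuron allows its branches to recognize each other. Alpha and gamma transcripts join 1 variable exon to constant exons that are shared across the cluster, whereas beta genes stand alone without constant exons. The non-clustered delta protocadherins are single genes that take part in cell sorting, axon growth and synapse formation, and the delta-2 proteins recruit the WAVE actin regulator through their cytoplasmic domain. PCGF5 is a Polycomb protein of a variant PRC1 complex that ubiquitinates histone H2A.

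Values are FPKM, that is, fragments per kilobase of transcript corrected for how many fragments each library mapped, so levels can be set side by side between genes. The files hold no fragment counts. From the spacing of low values, the depth of the other 7 samples was estimated at 0.986 to 1.29 times that of WT day 0 replicate 1. Pcgf5 itself read 5.18 and 3.63 FPKM in WT day 0 and 1.28 and 1.84 FPKM in Pcgf5-/- day 0. By day 6, WT samples read 9.16 and 5.06 FPKM and Pcgf5-/- samples 0.669 and 0.457 FPKM, so the genotypes did not overlap on either day. Genes were tested with limma on log2(FPKM + 1) where the mean FPKM was over 1 in at least 1 condition, which kept 13214 genes and 25 of the 71 protocadherin genes. The other 46 were too low and are described by their values. Differences below are on this log2(FPKM + 1) scale, with the standard error (SE), and adjusted p-values are over all 13214 genes.

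At day 6, protocadherin expression was lower in Pcgf5-/- cells than in WT. Of the 69 members above 0.001 FPKM in at least 1 sample, both Pcgf5-/- samples lay below both WT samples for 49 and above them for 2, Pcdh1 and Pcdha1. Over all 19667 genes above that level, the genotypes were apart in this way for 25.0% downward and 28.2% upward. Of the 49, 40 are clustered genes, and the 49 include rows near 0 such as Pcdh11x. All members share the same libraries, and alpha and gamma rows share constant exons, so the 49 are not separate observations. In limma, 6 members were lower in Pcgf5-/- cells and none was higher (1, Pcdh1, at an unadjusted p under 0.05), where 7.05% of all genes tested were lower and 9.57% were higher. The 6 were Pcdh8, Pcdh17, Pcdh18, Pcdhb17, Pcdhb22 and Pcdhga3. Of the 25 tested members, 7 passed the expression filter through WT day 6 alone, so the tested members are not a neutral sample of the family. Pcdh17, Pcdhb17 and Pcdhb22 are among these 7, so their place in the test rests on the group where they were high. Cufflinks also gives bounds on each value, and for 14 members the upper bounds of both Pcgf5-/- samples lay below the lower bounds of both WT samples, with none the other way, where the shares of all 19667 genes were 9.70% and 10.5%.

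Day 6 cells also differed in the markers of cell state. Of 10 neural progenitor markers, 9 were lower in Pcgf5-/- cells, and their summed level was 711 and 735 FPKM in WT against 299 and 288 FPKM in Pcgf5-/- cells. Of 10 ESC markers, 9 were higher, with sums of 501 and 274 FPKM in WT against 1263 and 1165 FPKM. Of 12 neuronal markers, 11 were tested and 5 were lower, with sums of 541 and 380 FPKM against 204 and 183 FPKM. In bulk samples, fewer cells of a type and less RNA per cell cannot be told apart, and the part of these markers in the protocadherin values was not tested. No marker in these lists was at 0 in every sample. Of the other lists, 1 of 4 tested neural crest markers (Pax3) was lower and 1 of 6 tested astrocyte and oligodendrocyte markers (Aldh1l1) was higher in Pcgf5-/- cells, and none of the 10 feeder fibroblast, 4 mesendoderm and 4 primitive endoderm markers tested passed, with 2, 1 and 0 at an unadjusted p under 0.05. Aldh1l1 lies on chromosome 6, whose median day 6 difference is given below. It stood at 5.19 to 10.3 FPKM at day 0. At day 6 it read 1.84 and 0.841 FPKM in WT and 4.29 and 3.86 FPKM in Pcgf5-/- cells. Summed primitive endoderm markers at day 6 were 50.1 and 7.89 FPKM in WT and 16.3 and 7.68 FPKM in Pcgf5-/- cells. The highest of these sums was that of WT day 6 replicate 1, so the WT samples were unlike in this list.

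The most negative genotype differences at day 6 were those of Pcdh8 and Pcdh17. They belong to the delta-2 genes Pcdh8, Pcdh17, Pcdh18, Pcdh19 and Pcdh10, each a single gene whose transcripts share no stretch of 50 bases with another gene in the GENCODE M1 set. Because each has a promoter of its own, the 250 bases upstream of the RefSeq start (build GRCm38.p6) are shown for the 4 that were high enough to test. In all 4 the same 250 bases occur once in the mm9 chromosome and end at the base before the gene start in the expression files. Capitals mark short patterns of letters on either strand. The GC box was searched as GGGCGG. The letters bound by SOX proteins were searched as CTTTGT. The core of the POU octamer was searched as ATGCAAA. The TATA box was searched as TATAAA. The core of the CTCF motif was searched as AGGNGGC. None of these matches overlaps another. The sequences run 5′ to 3′ on the strand of the gene.
Pcdh8, chr14:79771313-79771562, minus strand: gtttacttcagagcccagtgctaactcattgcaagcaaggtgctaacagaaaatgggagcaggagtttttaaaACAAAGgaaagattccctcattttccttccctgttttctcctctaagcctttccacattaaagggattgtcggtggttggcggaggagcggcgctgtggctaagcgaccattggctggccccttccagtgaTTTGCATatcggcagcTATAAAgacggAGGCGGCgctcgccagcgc
Pcdh17, chr14:84443313-84443562, plus strand: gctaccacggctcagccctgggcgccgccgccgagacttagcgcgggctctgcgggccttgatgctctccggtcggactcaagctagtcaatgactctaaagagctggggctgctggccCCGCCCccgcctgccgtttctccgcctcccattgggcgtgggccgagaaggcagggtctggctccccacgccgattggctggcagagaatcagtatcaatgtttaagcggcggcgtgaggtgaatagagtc
Pcdh18, chr3:49757317-49757566, minus strand: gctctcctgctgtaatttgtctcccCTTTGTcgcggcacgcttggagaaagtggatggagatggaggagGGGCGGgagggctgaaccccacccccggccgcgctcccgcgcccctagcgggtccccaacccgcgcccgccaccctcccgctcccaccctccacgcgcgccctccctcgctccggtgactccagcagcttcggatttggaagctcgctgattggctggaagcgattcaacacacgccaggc
Pcdh19, chrX:133688994-133689243, minus strand: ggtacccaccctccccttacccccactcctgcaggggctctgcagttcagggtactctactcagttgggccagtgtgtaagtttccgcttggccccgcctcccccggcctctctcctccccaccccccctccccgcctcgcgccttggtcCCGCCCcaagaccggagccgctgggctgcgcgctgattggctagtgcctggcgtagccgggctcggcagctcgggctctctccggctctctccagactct

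These windows are of different make. Pcdh17, Pcdh18 and Pcdh19 hold 21, 23 and 16 CpG dinucleotides and 1 GC box each, where the median promoter of 27025 in the table holds 6 CpG and 32.9% hold a GC box. Pcdh8 holds 11 CpG and no GC box, but a TATA box 30 to 25 bases before the start (TATAAA is in 13% of all promoters) and a POU core 46 to 40 bases before it (4.06%). A CTCF core match lies 19 to 13 bases before the Pcdh8 start (24.6%), and the SOX letters occur once each in Pcdh8 and Pcdh18 (16.5%). Pcdh10, not printed, holds 22 CpG and 1 GC box. These are matches of letters and were not tested as sites. Of the 71 members, 9 have an entry in the promoter table.

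Pcdh8 (chr14:80166579-80171119 in mm9), also known as paraxial protocadherin or arcadlin, an activity-regulated protein that takes N-cadherin from the synapse, stood at 0.0189 and 0.0320 FPKM in WT day 0 and 0.102 and 0.131 FPKM in Pcgf5-/- day 0. At day 6, it stood at 21.4 and 27.4 FPKM in WT and at 7.80 and 5.86 FPKM in Pcgf5-/- cells. It was nearly silent in all day 0 samples and the highest protocadherin gene in WT day 6, and the genotypes did not overlap on either day. Pcdh8 rose in WT by 4.62 (SE 0.21, adjusted p = 5.83e-06) and in Pcgf5-/- cells by 2.80 (SE 0.21, adjusted p = 0.000138). At day 6 it was lower in Pcgf5-/- cells by a difference of -1.70 (SE 0.21, adjusted p = 0.00421), a level 0.280 times that of WT. The genotype difference itself changed between day 0 and day 6 by -1.82 (SE 0.29, adjusted p = 0.0292), the single member of 25 called for this interaction, where 1.75% of all genes tested were called lower and 1.34% higher (1.70% and 2.32% after quantile normalization, 1.10% and 2.57% with the same median in each sample). The day 6 call held whichever sample was left out, with adjusted p-values up to 0.0346. The interaction call was lost in 6 of the 8 fits that left out 1 sample, with adjusted p-values from 0.0516 to 0.112, and held without Pcgf5-/- day 0 replicate 1 and without WT day 6 replicate 1.

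Pcdh17 (chr14:84843370-84936867), which acts in axon extension and presynaptic assembly, read 0.136 and 0.0363 FPKM in WT day 0 and 0.0706 and 0.0937 FPKM in Pcgf5-/- day 0. At day 6, WT samples reached 1.63 and 1.70 FPKM and Pcgf5-/- samples 0.304 and 0.297 FPKM. All 4 day 6 samples were above all day 0 samples, but the Pcgf5-/- level was 0.181 times that of WT. The WT rise was 1.30 (SE 0.16, adjusted p = 0.000344) and the genotype difference at day 6 was -1.03 (SE 0.16, adjusted p = 0.00803). In Pcgf5-/- cells the change over time was 0.27 (SE 0.16, adjusted p = 0.234) and did not pass the test. The interaction was -1.03 (SE 0.22) with an adjusted p of 0.0510.

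Pcdh18 (chr3:49547218-49561238), whose cytoplasmic domain binds the Reelin adaptor Dab1, read 0.241 and 0.238 FPKM in WT day 0 and 0.156 and 0.727 FPKM in Pcgf5-/- day 0. Its day 6 values were 6.14 and 6.35 FPKM in WT and 2.56 and 3.20 FPKM in Pcgf5-/- cells. It rose in both genotypes, by 2.55 (SE 0.23, adjusted p = 7.33e-05) in WT and by 1.45 (SE 0.23, adjusted p = 0.00267) in Pcgf5-/- cells. At day 6 the genotype difference was -0.91 (SE 0.23, adjusted p = 0.0314), and this call was lost when any 1 of the 4 day 6 samples was left out, with differences from -0.79 to -1.02 and adjusted p-values from 0.0718 to 0.151. The highest day 0 value was in Pcgf5-/- day 0 replicate 2, the sample in which the summed feeder fibroblast markers were also highest, at 654 FPKM against 190 to 303 FPKM in the other 3 day 0 samples. The part of feeder RNA in that value was not tested.

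Pcdh19 (chrX:130117400-130223532), the X-linked gene of a female-limited epilepsy, ran the other way over time. It read 1.61 and 1.60 FPKM in WT day 0 and 1.42 and 2.17 FPKM in Pcgf5-/- day 0. At day 6 it read 0.849 and 0.962 FPKM in WT and 0.433 and 0.298 FPKM in Pcgf5-/- cells. Every day 6 sample was below every day 0 sample, and the Pcgf5-/- samples were the lowest. It fell in Pcgf5-/- cells by 1.02 (SE 0.19, adjusted p = 0.00581). The WT change of -0.45 (SE 0.19) had an adjusted p of 0.0816, and it was called after either of the other scalings tried, at -0.86 (adjusted p = 0.00552) with quantile normalization and -0.82 (adjusted p = 0.00722) with the same median in each sample. The day 6 genotype difference of -0.48 (SE 0.19, adjusted p = 0.124) did not pass the test.

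Pcdh10 (chr3:45182320-45238501), which guides striatal and thalamocortical axons, was too low to test. It read 0.300 and 0.0142 FPKM in WT day 0 and 0.186 and 0.108 FPKM in Pcgf5-/- day 0. By day 6, WT samples read 0.287 and 0.190 FPKM and Pcgf5-/- samples 0.0549 and 0.0333 FPKM. The day 0 samples overlapped and the day 6 samples did not. Thus all 5 delta-2 genes had both Pcgf5-/- samples below both WT samples at day 6, where the share of all 19667 genes was 25.0%. They stood at 0.181 to 0.461 times the WT mean, and their summed level was 30.3 and 36.6 FPKM in WT against 11.2 and 9.69 FPKM in Pcgf5-/- cells.

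**Figure D1:**
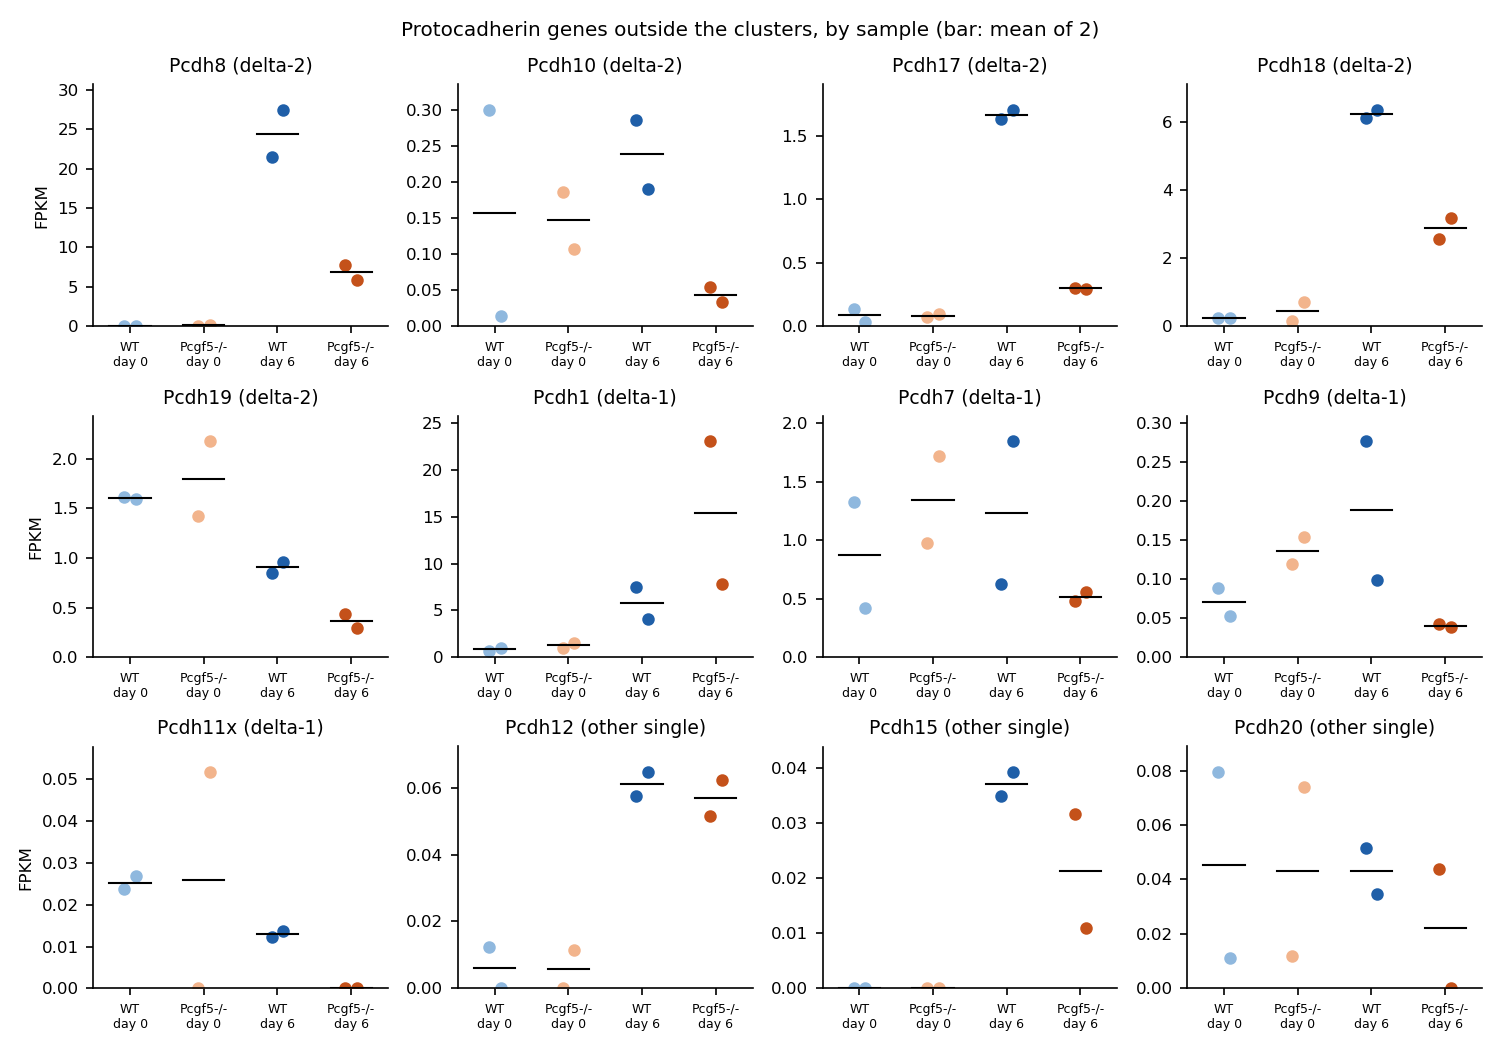
FPKM (y axis, linear, each panel with its own scale from 0) of the 12 single protocadherin genes in the 8 samples, grouped by genotype and day on the x axis, where a point is 1 sample and a bar the mean of 2. The delta-2 genes Pcdh8, Pcdh17 and Pcdh18 are high in WT day 6 and lower in Pcgf5-/- day 6, Pcdh19 is highest at day 0, and Pcdh1 reaches 23.0 FPKM in 1 Pcgf5-/- day 6 sample.

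The delta-1 genes did not move together. Pcdh1 (chr18:38356348-38369416), an adhesion protein of epithelia and endothelium as well as brain, read 0.719 and 0.956 FPKM in WT day 0 and 1.04 and 1.49 FPKM in Pcgf5-/- day 0. Its day 6 values were 7.47 and 4.13 FPKM in WT and 23.0 and 7.86 FPKM in Pcgf5-/- cells. Both day 6 groups were above both day 0 groups, and the 2 Pcgf5-/- day 6 samples lay far apart from each other. It rose in WT by 1.85 (SE 0.44, adjusted p = 0.00861) and in Pcgf5-/- cells by 2.69 (SE 0.44, adjusted p = 0.00320). Without WT day 6 replicate 1, the WT change was 1.48 with an adjusted p of 0.0573. At day 6, the difference of 1.15 (SE 0.44, adjusted p = 0.111) did not pass the test. With a replicate block for each day, the same difference was called (SE 0.21, adjusted p = 0.0164), where 14.3% of all genes were higher. Without Pcgf5-/- day 6 replicate 2, it was 1.87 with an adjusted p of 0.0327.

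Pcdh7 (chr5:58109260-58523479), a delta-1 member that binds protein phosphatase 1, read 1.32 and 0.420 FPKM in WT day 0 and 0.973 and 1.72 FPKM in Pcgf5-/- day 0. At day 6 it read 0.623 and 1.84 FPKM in WT and 0.480 and 0.555 FPKM in Pcgf5-/- cells. The WT samples differed by about as much within a day as between days, and no contrast passed the test, the day 6 genotype difference being -0.50 (SE 0.33, adjusted p = 0.333). Pcdh9 (chr14:93412919-94289888), a delta-1 gene of the cortex, was under 0.3 FPKM in every sample. It read 0.0887 and 0.0533 FPKM in WT day 0 and 0.120 and 0.153 FPKM in Pcgf5-/- day 0, then 0.276 and 0.0994 FPKM in WT day 6 and 0.0422 and 0.0384 FPKM in Pcgf5-/- day 6. The Pcgf5-/- samples were thus above WT at day 0 and below it at day 6. Pcdh11x, on the X chromosome, did not exceed 0.0517 FPKM and was listed at 0 in both Pcgf5-/- day 6 samples.

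The remaining single genes were near 0. Pcdh12, an endothelial and placental protocadherin, did not exceed 0.0646 FPKM. Pcdh15, a component of the tip links of inner ear hair cells, was listed at 0 in all day 0 samples and reached at most 0.0391 FPKM at day 6. Pcdh20 did not exceed 0.0793 FPKM. Among endothelial markers, 1 of 3 tested, Pecam1, was higher in Pcgf5-/- cells at day 6, at 6.90 and 3.65 FPKM in WT against 26.3 and 24.4 FPKM. Pecam1 is also expressed by ESCs and stood at 40.6 to 60.6 FPKM at day 0.

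In the clusters, values of different subclusters differ in how well reads can be assigned. The 22 beta genes have separate ends, and for the 21 with a GENCODE M1 transcript a median of 3.84% (range 0 to 12.0%) of all 50-base stretches also occur in another gene. In contrast, the 22 gamma rows end within 9 bases of each other, from 38001517 to 38001526 on chromosome 18, since they share the constant exons. Cufflinks divides the shared reads between them, so a single alpha or gamma value is an estimate of that division. Such rows can carry residues far below 0.001 FPKM, which were read as 0. The row Pcdha7-g, which spans from an alpha variable exon to the gamma end, stayed under 0.001 FPKM in every sample, as did Pcdha6.

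The beta cluster (chr18:37424652-37681073) was nearly silent in ESCs and had the lowest Pcgf5-/- to WT ratio of summed FPKM among the subclusters at day 6, whereas the median ratio per gene was 0.294 for beta and 0.246 for alpha. Its 22 genes summed to 0.559 and 0.509 FPKM in WT day 0 and 0.492 and 1.18 FPKM in Pcgf5-/- day 0. At day 6 they summed to 11.8 and 6.54 FPKM in WT but to 2.30 and 2.69 FPKM in Pcgf5-/- cells, a ratio of 0.271. The number of beta genes above 0.1 FPKM went from 2 and 1 at day 0 to 20 and 16 at day 6 in WT, and from 2 and 2 to 8 and 6 in Pcgf5-/- cells. For 17 of the 22, both Pcgf5-/- day 6 samples lay below both WT samples, and for none above, where the shares of all 19667 genes were 25.0% and 28.2%. For 19 in WT and 12 in Pcgf5-/- cells, both day 6 samples lay above both day 0 samples. Over all genes, those upward shares were 42.4% in WT and 36.9% in Pcgf5-/- cells. The 2 WT day 6 sums lay far apart, but both were above the Pcgf5-/- sums. The higher was that of replicate 1, in which summed primitive endoderm, neuronal and ESC markers also exceeded those of replicate 2. The part of these markers in the beta values was not tested.

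Pcdhb22 (chr18:37678007-37681073), the last and highest beta gene, read 0.116 and 0.176 FPKM in WT day 0 and 0.166 and 0.238 FPKM in Pcgf5-/- day 0. By day 6, WT samples read 3.13 and 1.63 FPKM and Pcgf5-/- samples 0.713 and 0.889 FPKM, without overlap. The WT rise was 1.53 (SE 0.23, adjusted p = 0.000954) and the genotype difference at day 6 was -0.87 (SE 0.23, adjusted p = 0.0365). Pcdhb17 (chr18:37644675-37647944) read 0.151 and 0.0914 FPKM in WT day 0 and 0.136 and 0.506 FPKM in Pcgf5-/- day 0, with the highest value again in Pcgf5-/- day 0 replicate 2. Its day 6 values were 1.58 and 0.772 FPKM in WT and 0.180 and 0.175 FPKM in Pcgf5-/- cells. Its WT rise was 0.93 (SE 0.23, adjusted p = 0.00992), its genotype difference -0.86 (SE 0.23, adjusted p = 0.0377), and its change in Pcgf5-/- cells -0.15 (SE 0.23, adjusted p = 0.647). The day 6 genotype call of Pcdhb22 was lost in 6 of the 8 fits that left out 1 sample, all except those without Pcgf5-/- day 0 replicate 1 and WT day 6 replicate 2, and its difference without WT day 6 replicate 1 was -0.55 (adjusted p = 0.111). The call of Pcdhb17 was lost in 5 of the 8, those without either WT day 0 sample, either Pcgf5-/- day 6 sample (adjusted p up to 0.139) or WT day 6 replicate 1, where it was too low to test. These were the 2 beta genes high enough to test.

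The other 20 beta genes read 0 to 1.01 FPKM in WT day 6 and 0 to 0.236 FPKM in Pcgf5-/- day 6. Pcdhb11 read 1.01 and 0.424 FPKM in WT day 6 against 0.227 and 0.236 FPKM in Pcgf5-/- day 6, and was listed at 0 in all day 0 samples. Pcdhb20 read 0.920 and 0.543 FPKM in WT against 0.121 and 0.168 FPKM. Pcdhb1, the first gene of the cluster, was listed at 0 in all day 6 samples. Across the 22 genes, the WT day 6 level was higher toward the distal end of the cluster (Spearman's rho 0.56 with the order of starts), a description over genes that share the same 2 libraries. For the beta genes this rho was 0.57 in WT day 0 and 0.42 in Pcgf5-/- day 6. For the gamma A and B genes it was -0.05 in WT day 6.

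**Figure D2:**
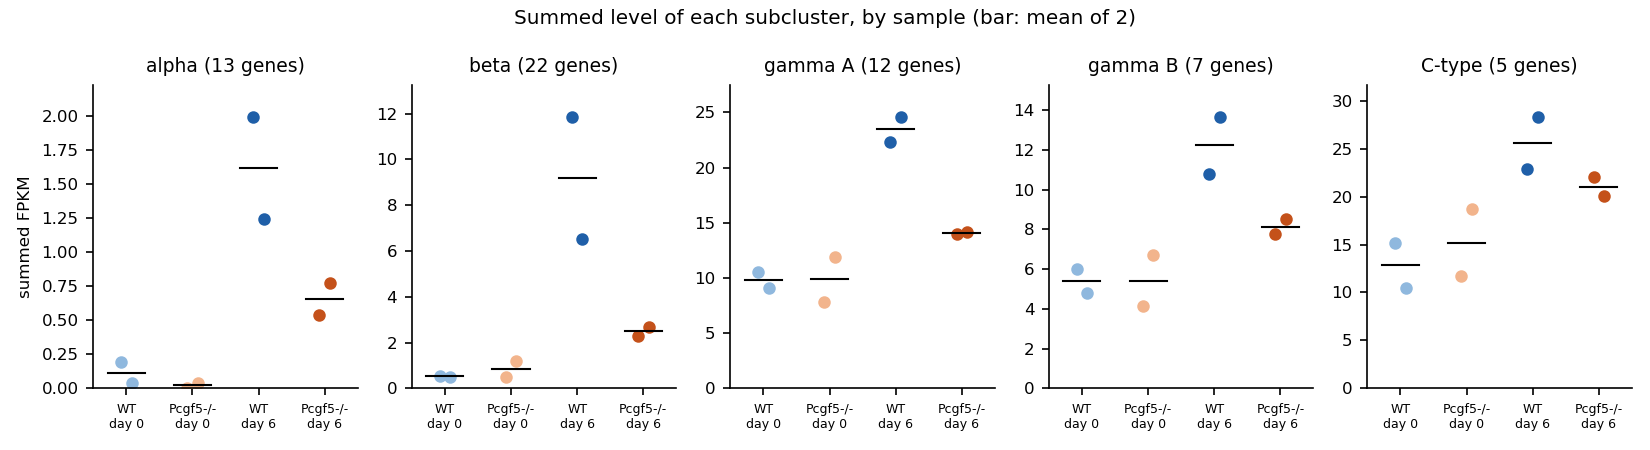
Summed FPKM (y axis, linear, each panel with its own scale from 0) of the alpha, beta, gamma A, gamma B and C-type genes in the 8 samples, grouped by genotype and day, where a point is 1 sample and a bar the mean of 2. Beta sums are 11.8 and 6.54 FPKM in WT day 6 and 2.30 and 2.69 FPKM in Pcgf5-/- day 6, and C-type sums are nearer to each other, at 22.9 and 28.3 FPKM in WT day 6 and 22.0 and 20.1 FPKM in Pcgf5-/- day 6.

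The alpha genes stayed low throughout. The 13 rows without the C-type exons summed to 0.192 and 0.0355 FPKM in WT and to less than 0.001 and 0.0421 FPKM in Pcgf5-/- cells at day 0. At day 6 they summed to 1.99 and 1.24 FPKM in WT and 0.537 and 0.769 FPKM in Pcgf5-/- cells. The sums at day 6 did not overlap, and no alpha row was high enough to test. Of the 11 alpha rows above 0.001 FPKM in any sample, 7 had both Pcgf5-/- samples below WT and 1, Pcdha1, above, where the shares of all 19667 genes were 25.0% and 28.2%. The distal rows were the higher ones in WT. Pcdha12, the alpha gene with the highest mean over all samples, read 0.488 and 0.268 FPKM in WT day 6 and 0.0839 and 0.0751 FPKM in Pcgf5-/- day 6. Pcdha11 read 0.537 and 0.358 FPKM in WT day 6 and 0.126 FPKM and under 0.001 FPKM in Pcgf5-/- day 6. Pcdha3 went against these, at 0.0999 FPKM and under 0.001 FPKM in WT day 6 but 0.0996 and 0.386 FPKM in Pcgf5-/- day 6. Across the 12 alpha genes, Pcdha7-g aside, the WT day 6 mean followed the order of starts with a Spearman's rho of 0.73, where the points share 2 libraries and the estimated division of reads. The alpha rho was 0.39 in WT day 0 and 0.17 in Pcgf5-/- day 6.

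**Figure D3:**
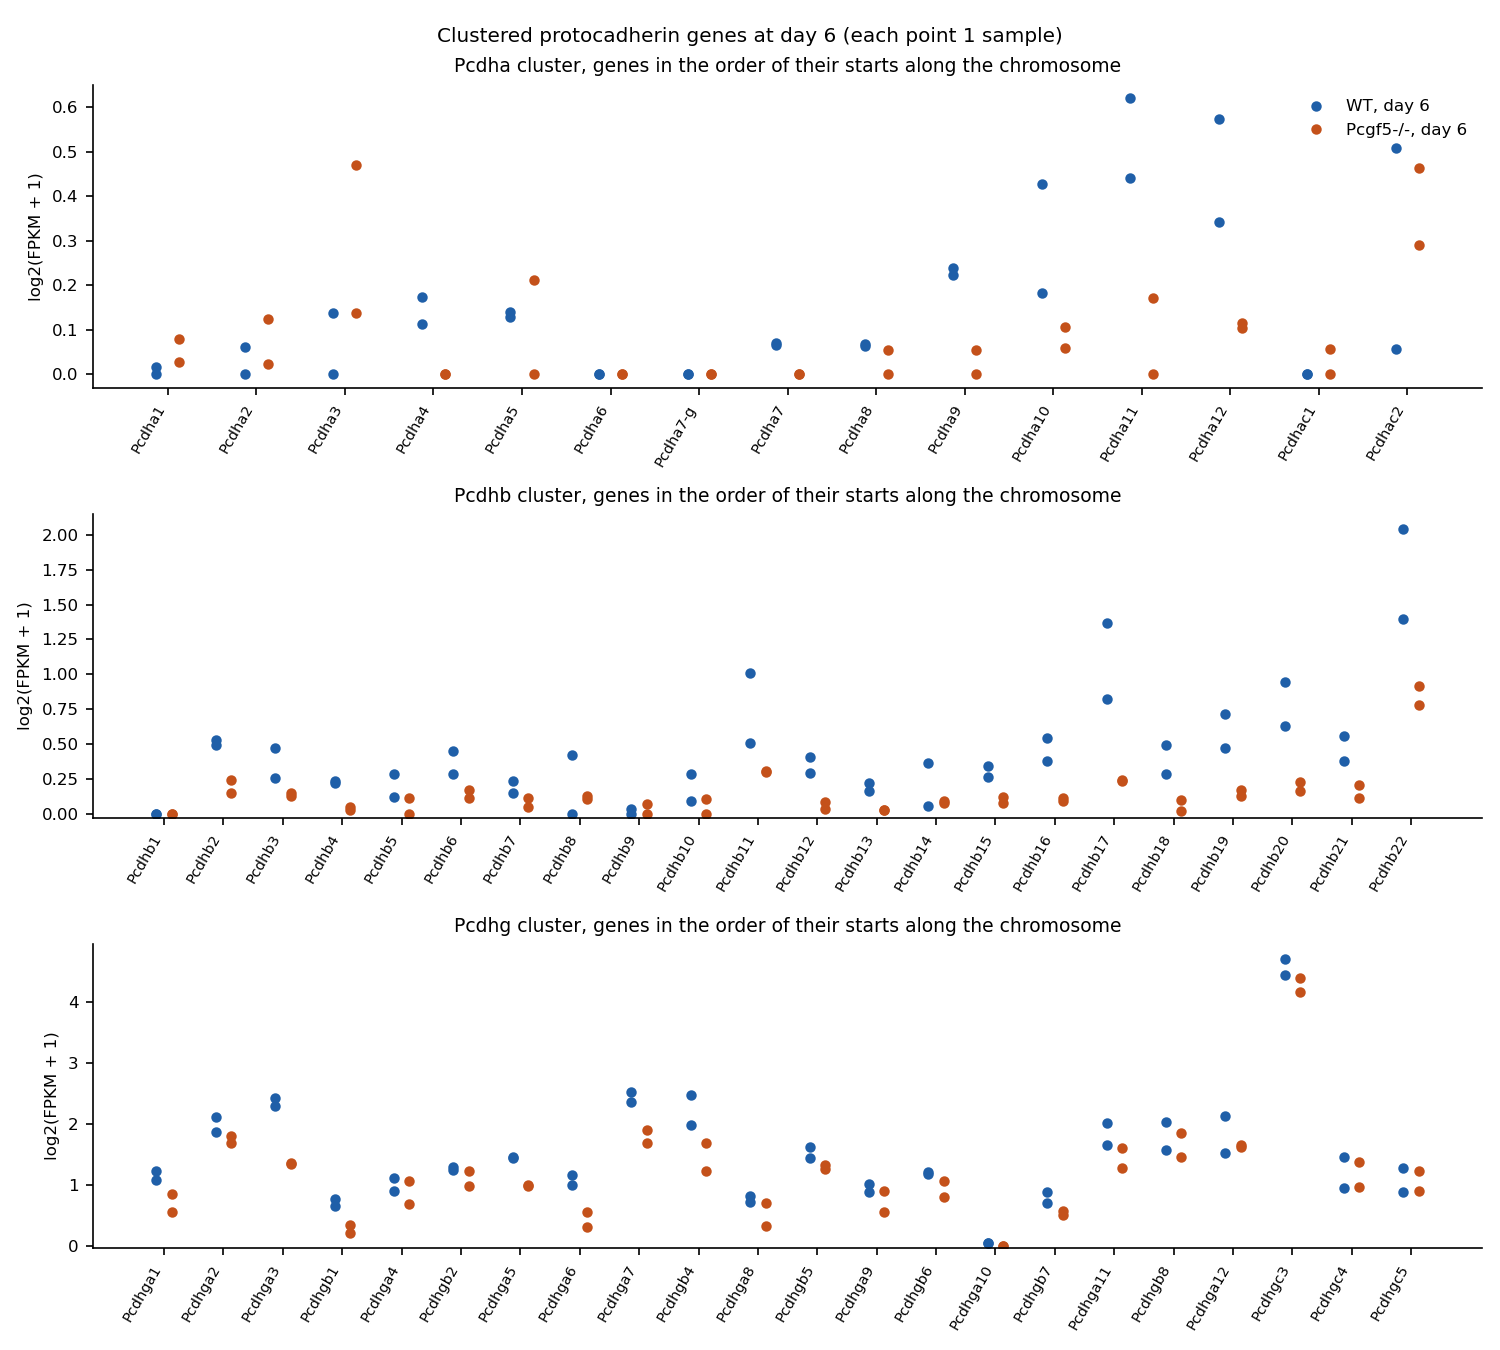
Level at day 6 as log2(FPKM + 1) (y axis, each panel with its own scale) of the 59 clustered genes in the order of their starts along the chromosome (x axis), where each point is 1 sample, WT in blue and Pcgf5-/- in orange. WT points lie above Pcgf5-/- points for 17 of 22 beta genes, most alpha values are near 0, and Pcdhgc3 is the highest clustered gene in both genotypes.

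The gamma cluster was already active in the day 0 samples. Its gamma A genes summed to 10.5 and 9.13 FPKM in WT day 0 and 7.80 and 11.9 FPKM in Pcgf5-/- day 0, and to 22.3 and 24.6 FPKM in WT day 6 and 14.0 and 14.2 FPKM in Pcgf5-/- day 6. The gamma B genes summed to 5.99 and 4.81 FPKM in WT day 0 and 4.13 and 6.70 FPKM in Pcgf5-/- day 0, and to 10.8 and 13.6 FPKM in WT day 6 and 7.75 and 8.50 FPKM in Pcgf5-/- day 6. Both sums overlapped between genotypes at day 0 and did not at day 6, where the Pcgf5-/- to WT ratios were 0.600 and 0.665. Of the 19 gamma A and B genes, 15 had both Pcgf5-/- day 6 samples below both WT samples and none above, where the shares of all 19667 genes were 25.0% and 28.2%. These genes share constant exons and the same libraries, so the 15 are not separate observations. Summed feeder fibroblast markers at day 0 were 303 and 190 FPKM in WT and 191 and 654 FPKM in Pcgf5-/- cells. The part of feeder RNA in the day 0 gamma sums was not tested.

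In WT, 16 protocadherin genes rose from day 0 to day 6 and none fell (1, Pcdh19, at an unadjusted p under 0.05), where 34.2% of all genes tested rose and 16.2% fell. Besides the single genes and beta genes above, these were Pcdhga2, Pcdhga3, Pcdhga5, Pcdhga6, Pcdhga7, Pcdhgb4, Pcdhgb5, Pcdhgb6, Pcdhgc3 and Pcdhgc4, with rises from 0.56 (SE 0.18) for Pcdhgb6 to 1.66 (SE 0.17) for Pcdhga3. The other 7 tested gamma genes did not pass. Of the 25 tested members, 13 passed the expression filter through day 6 conditions alone, and such a pass favours a rise. The 16 are thus not a neutral count. The call of Pcdhgb6 was lost without any 1 of the 4 WT samples, with adjusted p-values up to 0.113. That of Pcdhga6 was lost without WT day 0 replicate 2, where it was 0.66 with an adjusted p of 0.0923, and without WT day 6 replicate 2, where it was too low to test. The median change of all tested genes in WT was 0.22 with the deposited FPKM, 0.00 after quantile normalization and -0.15 with the same median in each sample, and the shares of all genes were 24.1% rising and 22.9% falling with the first of these scalings and 20.8% and 31.6% with the second. Pcdhga6, Pcdhgb6 and Pcdhgc4 lost their WT call under both of these scalings, and Pcdhb17 and Pcdhgc3 under the second alone. Pcdhga1, the first gene of the cluster, read 1.34 and 1.87 FPKM in WT day 0 and 1.32 and 1.10 FPKM in WT day 6, and its change of -0.23 (SE 0.20) was called as a fall under both scalings, at -0.64 (adjusted p = 0.0262) and -0.59 (adjusted p = 0.0296).

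Pcdhga3 (chr18:37833989-38001526) was the gamma gene with a genotype call. It read 0.650 and 0.585 FPKM in WT day 0 and 0.673 and 0.589 FPKM in Pcgf5-/- day 0. At day 6 it read 4.33 and 3.90 FPKM in WT and 1.56 and 1.53 FPKM in Pcgf5-/- cells. The 4 day 0 values lay together and the day 6 values formed separate genotype pairs. The genotype difference at day 6 was -1.01 (SE 0.17, adjusted p = 0.00944), lost in 1 of the 8 fits that left out a sample, that without Pcgf5-/- day 6 replicate 1, where it was -1.02 with an adjusted p of 0.0557. It rose in Pcgf5-/- cells by 0.64 (SE 0.17, adjusted p = 0.0217), a call lost without any 1 of the 4 Pcgf5-/- samples, with adjusted p-values up to 0.0791. Its share of the whole gamma sum was 7.79% and 5.86% in WT day 6 and 3.58% and 3.60% in Pcgf5-/- day 6.

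Pcdhga2, Pcdhga7 and Pcdhgb4 also had both Pcgf5-/- day 6 samples below both WT samples but no genotype call, and the difference between these genes and Pcdhga3 was not tested. Pcdhga2 (chr18:37828759-38001524) read 0.519 and 0.401 FPKM in WT day 0 and 0.425 and 0.783 FPKM in Pcgf5-/- day 0, then 3.32 and 2.62 FPKM in WT day 6 and 2.20 and 2.47 FPKM in Pcgf5-/- day 6. It rose by 1.44 (SE 0.20, adjusted p = 0.000581) in WT and by 1.06 (SE 0.20, adjusted p = 0.00532) in Pcgf5-/- cells, and the day 6 difference was -0.25 (SE 0.20, adjusted p = 0.420). Pcdhga7 read 4.13 and 4.74 FPKM in WT day 6 and 2.72 and 2.21 FPKM in Pcgf5-/- day 6, a difference of -0.65 (SE 0.29, adjusted p = 0.160). Pcdhgb4, the gamma B gene with the highest mean, read 2.94 and 4.52 FPKM in WT day 6 and 1.34 and 2.20 FPKM in Pcgf5-/- day 6, a difference of -0.77 (SE 0.30, adjusted p = 0.112). Pcdhga12, the gamma A gene with the highest mean, read 2.74, 2.79, 2.09 and 3.36 FPKM in the 4 day 0 samples and 1.88, 3.36, 2.13 and 2.08 FPKM at day 6, in the order WT then Pcgf5-/-, and passed the test in no contrast.

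The C-type genes, whose exons lie at the ends of the alpha and gamma clusters and are expressed without the random choice of the other exons, had the day 6 genotype ratio of sums nearest to 1 of the subclusters, although their sums did not overlap. Pcdhgc3 (chr18:37966064-38001526), a member that inhibits Wnt signaling through Axin1, was the most abundant protocadherin in the day 0 samples. It read 13.2 and 9.31 FPKM in WT day 0 and 9.88 and 16.2 FPKM in Pcgf5-/- day 0. By day 6, WT samples read 20.7 and 25.1 FPKM and Pcgf5-/- samples 19.9 and 16.8 FPKM. Its WT rise was 0.98 (SE 0.25, adjusted p = 0.0124), lost in 2 of the 8 fits that left out a sample, those without WT day 0 replicate 2 and without WT day 6 replicate 2, where it was 0.75 and 0.84 with an adjusted p of 0.0796 in both. The day 6 genotype difference of -0.30 (SE 0.25, adjusted p = 0.442) did not pass the test. Pcdhgc3 made up 37.3% to 45.8% of the gamma sum in every sample.

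Pcdhgc4, which is required for the survival of neurons, read 0.321 and 0.236 FPKM in WT day 0, 0.446 and 0.552 FPKM in Pcgf5-/- day 0, 0.927 and 1.74 FPKM in WT day 6 and 0.954 and 1.58 FPKM in Pcgf5-/- day 6. It rose in WT by 0.85 (SE 0.23, adjusted p = 0.0149), a call lost without WT day 0 replicate 2 (0.80, adjusted p = 0.0669) or WT day 6 replicate 2 (0.59, adjusted p = 0.0806), and its day 6 genotype difference was -0.04 (SE 0.23, adjusted p = 0.936). Pcdhgc5 read 0.771 to 1.61 FPKM at day 0 and 0.838 to 1.43 FPKM at day 6, and its day 6 difference was -0.02 (SE 0.26, adjusted p = 0.974). Pcdhac2 read 0.127 to 0.616 FPKM at day 0 and 0.0396 to 0.422 FPKM at day 6, and Pcdhac1 did not exceed 0.0406 FPKM. Without Pcdhgc3, the C-type sums at day 6 were 2.19 and 3.21 FPKM in WT and 2.09 and 3.28 FPKM in Pcgf5-/- cells.

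**Figure D4:**
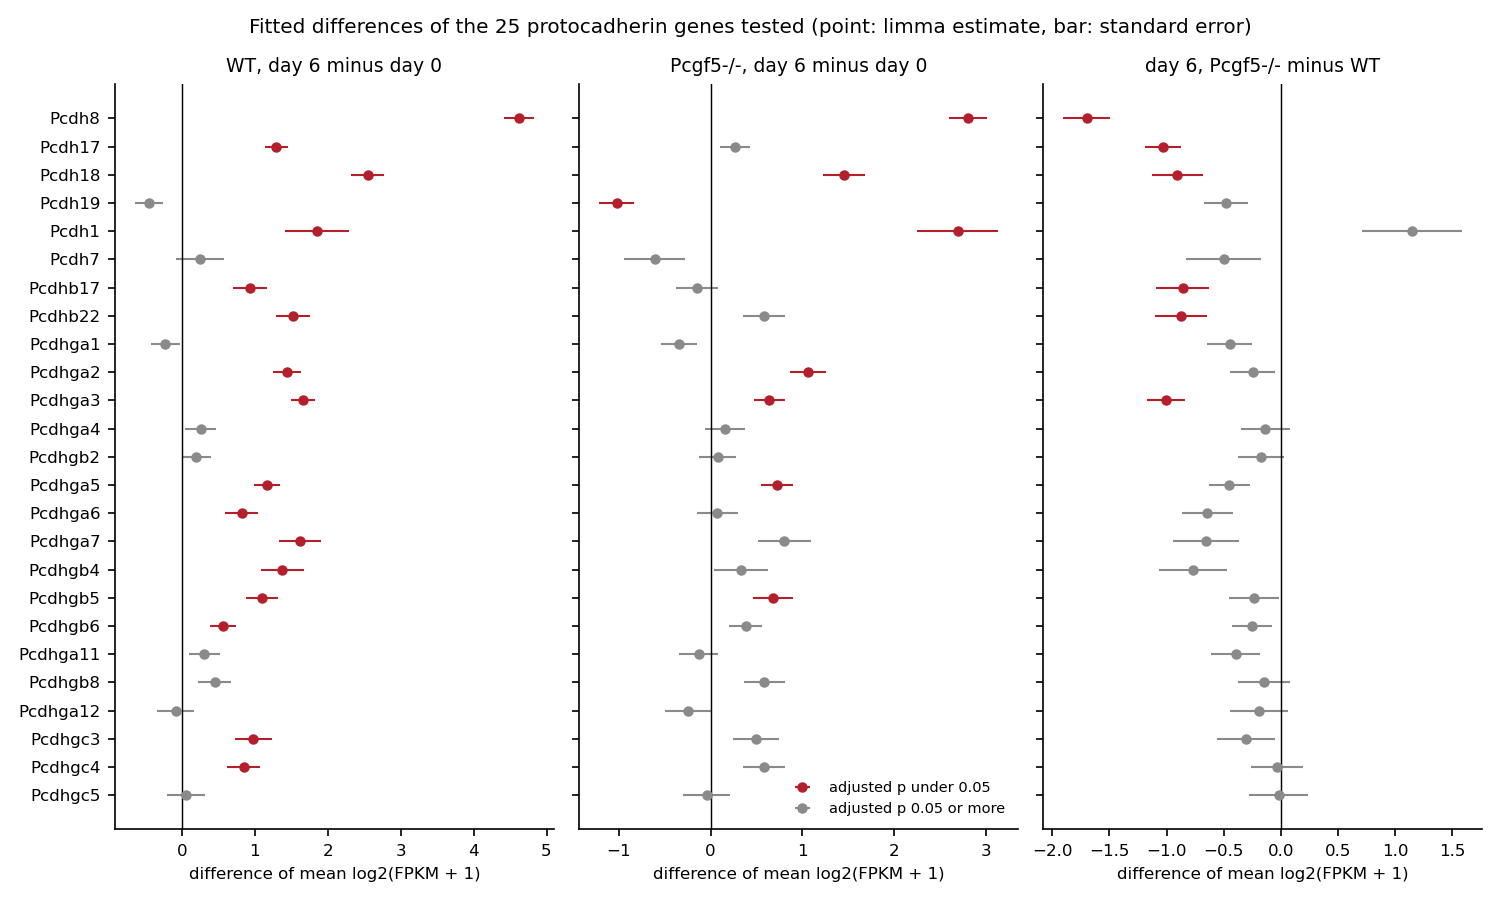
Differences of mean log2(FPKM + 1) (x axis) of the 25 tested protocadherin genes (y axis) for day 6 minus day 0 in WT, the same in Pcgf5-/- cells, and Pcgf5-/- minus WT at day 6, where a point is the limma estimate, a bar its standard error, and red marks an adjusted p under 0.05. Pcdh8 has the largest WT rise, at 4.62, and the most negative genotype difference, at -1.70, and Pcdh1 is the single point above 0 in the genotype panel.

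Over time in Pcgf5-/- cells, 7 members rose and 1 fell, where 21.9% of all genes tested rose and 10.4% fell. The 7 were Pcdh8, Pcdh18, Pcdh1, Pcdhga2, Pcdhga3, Pcdhga5 and Pcdhgb5, all of which also rose in WT, and the 1 that fell was Pcdh19. The 13 members that passed the filter through day 6 conditions alone are among the 25 tested here too. After quantile normalization, 14.8% of all genes rose and 13.1% fell, the rises of Pcdhga3 (0.35, adjusted p = 0.164), Pcdhga5 (0.44, adjusted p = 0.0993) and Pcdhgb5 (0.38, adjusted p = 0.206) were lost, and Pcdhga1 was called as a fall (-0.65, adjusted p = 0.0397). With the same median in each sample, 14.8% rose and 16.0% fell, and Pcdhga3 (0.46, adjusted p = 0.0767) and Pcdhgb5 (0.49, adjusted p = 0.119) were lost. Pcdhga5 rose by 0.72 (SE 0.18, adjusted p = 0.0168), a call lost in 3 of the 8 fits that left out a sample, those without Pcgf5-/- day 0 replicate 1 and either Pcgf5-/- day 6 sample, with adjusted p-values up to 0.101. Pcdhgb5 rose by 0.68 (SE 0.22, adjusted p = 0.0447), a call lost in 5 of the 8, those without Pcgf5-/- day 0 replicate 1 (0.45, adjusted p = 0.235) and any 1 of the 4 day 6 samples, and also lost with the replicate number as a block (adjusted p = 0.0564). Of 69 members, both day 6 samples lay above both day 0 samples for 49 in WT and 33 in Pcgf5-/- cells. These are 71.0% and 47.8% of the members, where the upward shares of all genes were 42.4% and 36.9%. Downward, the counts were 3 and 6, where the shares of all genes were 24.2% and 21.6%. A call in WT that is absent in Pcgf5-/- cells is not a tested difference, and the interaction was called for Pcdh8 alone. The WT and Pcgf5-/- day 6 samples enter both the time and the genotype comparisons.

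At day 0 no member passed the test between genotypes, where 0.288% of all genes tested were higher and 0.0454% lower in Pcgf5-/- cells. Those shares were 0% and 0.0227% after quantile normalization and 0% and 0.0151% with the same median in each sample, which moved the median difference of all genes from 0.11 to -0.01 and -0.03. None of the 25 reached an unadjusted p of 0.05 in limma either. Both Pcgf5-/- samples lay above both WT samples for 6 of 69 members and below for 5, where the shares of all genes were 28.1% and 12.0%. Pcdh8 was among the 6, at levels of 0.131 FPKM or less. The clustered genes together summed to 32.5 and 25.0 FPKM in WT day 0 and 24.1 and 38.5 FPKM in Pcgf5-/- day 0, and to 69.9 and 74.3 FPKM in WT day 6 and 46.6 and 46.2 FPKM in Pcgf5-/- day 6. The protocadherin genes lie on chromosomes 3, 5, 10, 14, 18 and X, where the median day 6 genotype difference of all tested genes on chromosome 18 was -0.03 and on chromosome 14 was -0.03. Chromosomes 6 and 11, whose medians at day 6 were 0.37 and 0.38, hold no member.

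Genes that act on protocadherins were set beside them. Of 11 genes of CTCF and cohesin, which bring cluster promoters to their enhancers, 10 were tested and none passed the test between genotypes at day 6, with none at an unadjusted p under 0.05. Ctcf read 74.2 and 71.4 FPKM in WT and 85.3 and 78.6 FPKM in Pcgf5-/- cells, and the largest difference was that of Wapal, which releases cohesin, at 0.42 (SE 0.20, adjusted p = 0.195). Of 11 genes of DNA methylation and silencing, 1 was higher, the methylcytosine dioxygenase Tet1, at 9.79 and 4.83 FPKM in WT against 31.2 and 14.8 FPKM, a difference of 1.51 (SE 0.37, adjusted p = 0.0291). Dnmt3l, a cofactor of the de novo methyltransferases, had the largest difference of that list, at 2.09 (SE 0.70, adjusted p = 0.0757). Both Tet1 and Dnmt3l are also expressed in ESCs, where Tet1 stood at 25.9 to 39.4 FPKM.

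Of 7 genes of proteolytic processing, 1 was lower, Adam10, the metalloprotease that sheds the protocadherin ectodomain. It read 31.5 and 28.4 FPKM in WT day 6 and 18.0 and 15.7 FPKM in Pcgf5-/- day 6, a difference of -0.79 (SE 0.15, adjusted p = 0.0137). None of the 6 kinase and phosphatase genes passed, and the largest difference was that of Fyn, at -0.74 (SE 0.22, adjusted p = 0.0548), with 1 of 6 at an unadjusted p under 0.05. Of 9 WAVE complex genes, 1 was higher, the subunit Brk1, by 0.51 (SE 0.14, adjusted p = 0.0394). Brk1 lies on chromosome 6, where the median day 6 difference of all tested genes was 0.37, and it read 69.8 and 74.9 FPKM in WT day 0 and 121 and 122 FPKM in Pcgf5-/- day 0, a difference of 0.74 (adjusted p = 0.0622). In the same list Wasf2 had the largest difference, at 0.73 (SE 0.25, adjusted p = 0.0821).

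Of 12 other cadherin and adhesion genes, 8 were tested, 3 were lower and 1 was higher in Pcgf5-/- cells at day 6. Cdh2 (N-cadherin), a partner of Pcdh8 and Pcdh19, read 84.5 and 97.5 FPKM in WT and 36.8 and 34.6 FPKM in Pcgf5-/- cells, a difference of -1.32 (SE 0.33, adjusted p = 0.0319). Cdh6 was lower by a difference of -1.49 (SE 0.24, adjusted p = 0.00915), the largest of the list, and the neural alpha-catenin Ctnna2 by -1.20 (SE 0.17, adjusted p = 0.00648). Cdh1 (E-cadherin), the cadherin of ESCs, was higher, at 34.7 and 33.3 FPKM in WT against 81.2 and 64.3 FPKM, a difference of 1.07 (SE 0.19, adjusted p = 0.0108).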

How the data were processed

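PolyA+ RNA was sequenced from WT and Pcgf5-/- mESCs at day 0 and day 6, with 2 samples per condition, grouped by their titles. Before mapping paired-end reads to mm9, the authors clipped adapter and poor-quality sequence and discarded duplicated, short and N-rich reads, and the submitters' processing notes name TopHat2 2.0.4 and Cufflinks 2.1.1. The deposited values are FPKM per gene as Cufflinks computed them, and removal of duplicates can lower abundant transcripts. The gene annotation is not given in the sources used here. The study describes its samples as independent biological samples, while the number of separate cultures or clones is not given in the labels, and p-values rest on the spread between the samples of a condition. Fragment counts are not in the files, so the precision of low values is not known beyond Cufflinks' bounds. Replicates of each condition had identical FPKM for 0.333% to 0.560% of tested genes, so within a condition neither library was a copy of the other. Samples of different conditions were not compared in this way.

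The 71 genes, the gene lists and the tests were chosen with earlier results of these data known. Locus starts were moved by 1 to the 1-based mm9 position. limma 3.58.1 in R 4.3.3 was fitted to log2(FPKM + 1) of the 13214 genes whose mean FPKM exceeded 1 in any condition, in 1 fit over 8 samples with the 4 condition means and a variance trend, two-sided, with Benjamini-Hochberg adjustment over all genes and a threshold of 0.05. The fit was tested on simulated data with known changes. Values of 0.001 FPKM or less were read as 0 in counts of samples that do not overlap. Described singly were every gene outside the clusters, every clustered gene called in any contrast, and the highest of each subcluster, with Pcdha3, Pcdha11, Pcdhb1, Pcdhb11, Pcdhb20 and neighbours in the clusters chosen after their values were seen. From the lists, genes called at day 6 and the largest difference of each were named. Promoters came from RefSeq (GRCm38.p6), and transcripts from GENCODE M1. Alternatives were other pseudocounts, filters and scalings, no trend, fewer samples and the replicate number as a block. Figures were drawn with matplotlib 3.10.9 in Python 3.11.15.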

Additional observations from a re-analysis of the deposited data

Results flagged for a closer look

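Pcdh8 differed between the genotypes in its course. The genotype difference changed from day 0 to day 6 by -1.82 on the log2(FPKM + 1) scale (SE 0.29, adjusted p = 0.0292 in the limma interaction), a call lost in 6 of 8 fits that left out 1 sample. Its Pcgf5-/- samples were above both WT samples at day 0, with a ratio of means of 4.57 between levels of 0.131 FPKM or less, and below both at day 6, with a ratio of 0.280.

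Pcdh9 moved in opposite directions by sample order. Its Pcgf5-/- samples were above WT at day 0 (ratio of means 1.92) and below WT at day 6 (0.215), and from day 0 to day 6 both samples were higher in WT (2.64) and lower in Pcgf5-/- cells (0.295). It was under the expression filter, so the difference was not tested in the main analysis, and with a mean FPKM over 0.1 and a pseudocount of 0.1, a setting chosen after seeing the data, the interaction was -1.44 (SE 0.57) with an adjusted p of 0.215. Conditions of 2 samples were too small to look for single outlying samples.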

How the results depend on the processing

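The count of protocadherin genes called in limma depended most on the filter, which sets how many are tested. Tested were 25 members in the main fit, 56 with a mean FPKM over 0.1, 71 with no filter and 4 with a mean over 5. For genotype at day 6, 6 were called, all lower, where 7.05% of all genes tested were lower. With a mean FPKM over 0.1, 12 were called lower (5.97% of all genes), and with no filter on low values 15 (4.06%). A mean FPKM over 5 gave 1 (7.04%) and a pseudocount of 0.01 gave 2 (3.84%). Of the members added with a mean over 0.1, Pcdha11, Pcdhb12 and Pcdhb16 passed that filter through WT day 6 alone. Leaving out 1 sample gave 2 to 6. Over time in WT, 16 were called, against 32 with a mean over 0.1, 37 with no filter, 4 with a mean over 5 and 36 with a mean over 0.1 and a pseudocount of 0.1, a setting chosen after seeing the data, and 12 to 16 without 1 sample. Over time in Pcgf5-/- cells, 8 were called, against 3 with a mean over 5, 9 with no filter, 11 in the added setting and 6 under each other scaling, and 5 to 8 without 1 sample. For the interaction, 1 was called, against 2 with a mean over 0.1, 3 without a variance trend and 0 in the added setting, and 0 to 1 without 1 sample. With no filter, the 1 was Pcdh17 in place of Pcdh8. At day 0 the count stayed at 0 in the settings run. Over time in WT, the share of all genes called as rising was 34.2% in the main fit and 29.6% with a mean over 0.1. It was 24.9% with no filter, 32.9% with a mean over 5 and 30.4% in the added setting. In Pcgf5-/- cells these shares were 21.9%, 18.3%, 14.3%, 20.9% and 18.8%, in the same order. No called value changed sign in the settings run.

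Replicate differences correlated at 0.102 between genotypes at day 0, 0.387 at day 6 and -0.077 to -0.022 across days. The main fit did not pair samples by number, and why same-numbered day 6 samples varied together was not tested. With the replicate block, 5 were called at day 6 without Pcdhb17 (adjusted p = 0.0507), and 7 over time in Pcgf5-/- cells without Pcdhgb5. With a replicate block for each day, 7 were called at day 6, adding Pcdh1 as higher, where 10.2% of all genes were lower and 14.3% higher. In the interaction 3 were called, adding Pcdh17 and Pcdhga3, where 4.62% of all genes were lower and 4.22% higher. All 6 day 6 calls were kept under both other scalings, against 13 and 11 of the 16 rises in WT and 4 and 5 of the 7 in Pcgf5-/- cells. Where a sample was left out, the lone sample of its condition was assumed to vary like the others. Each such fit also called fewer of all genes tested than the main fit in every contrast. Lost calls were thus not limited to protocadherin genes. The interaction was not run on the compared conditions alone, nor the time comparisons with a block for each day. Low FPKM cannot separate small differences, and the cause of these shifts was otherwise not tested.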
